A study of Caenorhabditis elegans with 2 samples.

Results

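DAF-16 is the FOXO transcription factor of Caenorhabditis elegans. DAF-16 binding was examined at 10 genes whose products hold it in the cytoplasm, help it into the nucleus, or raise or limit its activity. They were chosen by name for those roles, with no measured value in the rule but with earlier results of these data known: ftt-2, par-5, pptr-1, smk-1, hcf-1, sir-2.1, cst-1, jnk-1, eak-3 and eak-7. All 10 were found among the 19973 nuclear protein-coding genes of the annotation. The question was whether DAF-16 binds at genes that control its own location and activity. Each gene was given a window from 3000 bp upstream of its start to 500 bp past its end, and every peak with its summit in that window was counted for it.

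The data were ChIP-seq of DAF-16 in whole hermaphrodites at the L4 larval stage, collected 54 hours after L1 larvae were synchronised by bleaching and starvation. The 2 biological replicates were of strain ZM7247 and formed 1 group, with no second genotype or treatment to set it against. Every animal carried the daf-16 allele mu86, the daf-2 allele e1370 and the transgene hpSi4, in which the myo-3 promoter drives GFP::daf-16a. The labels' description says that an anti-GFP antibody was used, and their antibody field names daf-16. The myo-3 promoter is active in body wall muscle, so binding was read in the cells that make the tagged protein, and binding in tissues without it was not measured. Another label describes the tag as C-terminal GFP-FLAG, whereas the genotype writes GFP before daf-16a. The deposited peak lists carry no read counts, so the depth of each replicate is unknown and no single peak has a counting error.

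When insulin signalling is active, the kinase AKT phosphorylates DAF-16 and 14-3-3 proteins hold the phosphorylated protein in the cytoplasm. Loss of daf-2 activity, stress kinases and phosphatases that act on AKT shift DAF-16 to the nucleus, where cofactors raise or limit its effect on target genes. DAF-16 is known to recognise the DAF-16 binding element, called DBE here, which reads TGTTTAC on 1 strand and GTAAACA on the other.

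The 2563 peaks that passed the authors' threshold on the irreproducible discovery rate are called IDR peaks, and they were the strongest of 30000 candidates called on the pooled replicates. Strength is the authors' signal value for a peak, whose scale is not given in the sources used here, and rank 1 is the strongest peak of a list. The weakest IDR peak had a signal of 60.46 (rank 2563) and the next candidate, outside the list, 60.45 (rank 2564). Replicate 1 had 26922 candidates and replicate 2 had 25562. Among muscle genes, all 5 markers (myo-3, unc-54, hlh-1, unc-15, pat-10) had an IDR summit in their windows, beside 14.2% of all protein-coding genes. The signal at myo-3 was 864.8, although the myo-3 promoter is also part of the transgene. The strongest summit of unc-54 lay in its 3' UTR, 136 bp from the start of aex-5. None of 4 intestinal markers (ges-1, vit-2, elt-2, elo-2) or of 4 neuronal markers (unc-119, rab-3, unc-64, snb-1) had one, and 1 of 3 germline markers did, cgh-1. Beside a share of 14.2% of all genes, lists of 3 or 4 genes are too short to show that a tissue's genes lack peaks.

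Of the 10 regulators, 3 had an IDR summit in their windows: ftt-2 (which had 2), pptr-1 and smk-1. This was 3 of 10, beside 14.2% of all protein-coding genes (2831 of 19973), and with a list of this length 1 gene is 10% of it. The remaining genes, par-5, hcf-1, sir-2.1, cst-1, jnk-1, eak-3 and eak-7, had none. A pooled candidate of any strength lay in the windows of 8 of the 10 regulators, beside 58.9% of all genes, and the exceptions were hcf-1 and eak-3. The strongest candidate of each gene had a median signal of 48.3 over the 10 regulators and 13.9 over all genes, where a gene with no candidate counts as 0. No DBE lay within 100 bp of any of the 4 IDR summits, beside 8.93% of all IDR peaks (229 of 2563). No test was made of these counts, since the genes are a chosen list and the study has 1 group.

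**Figure D1:**
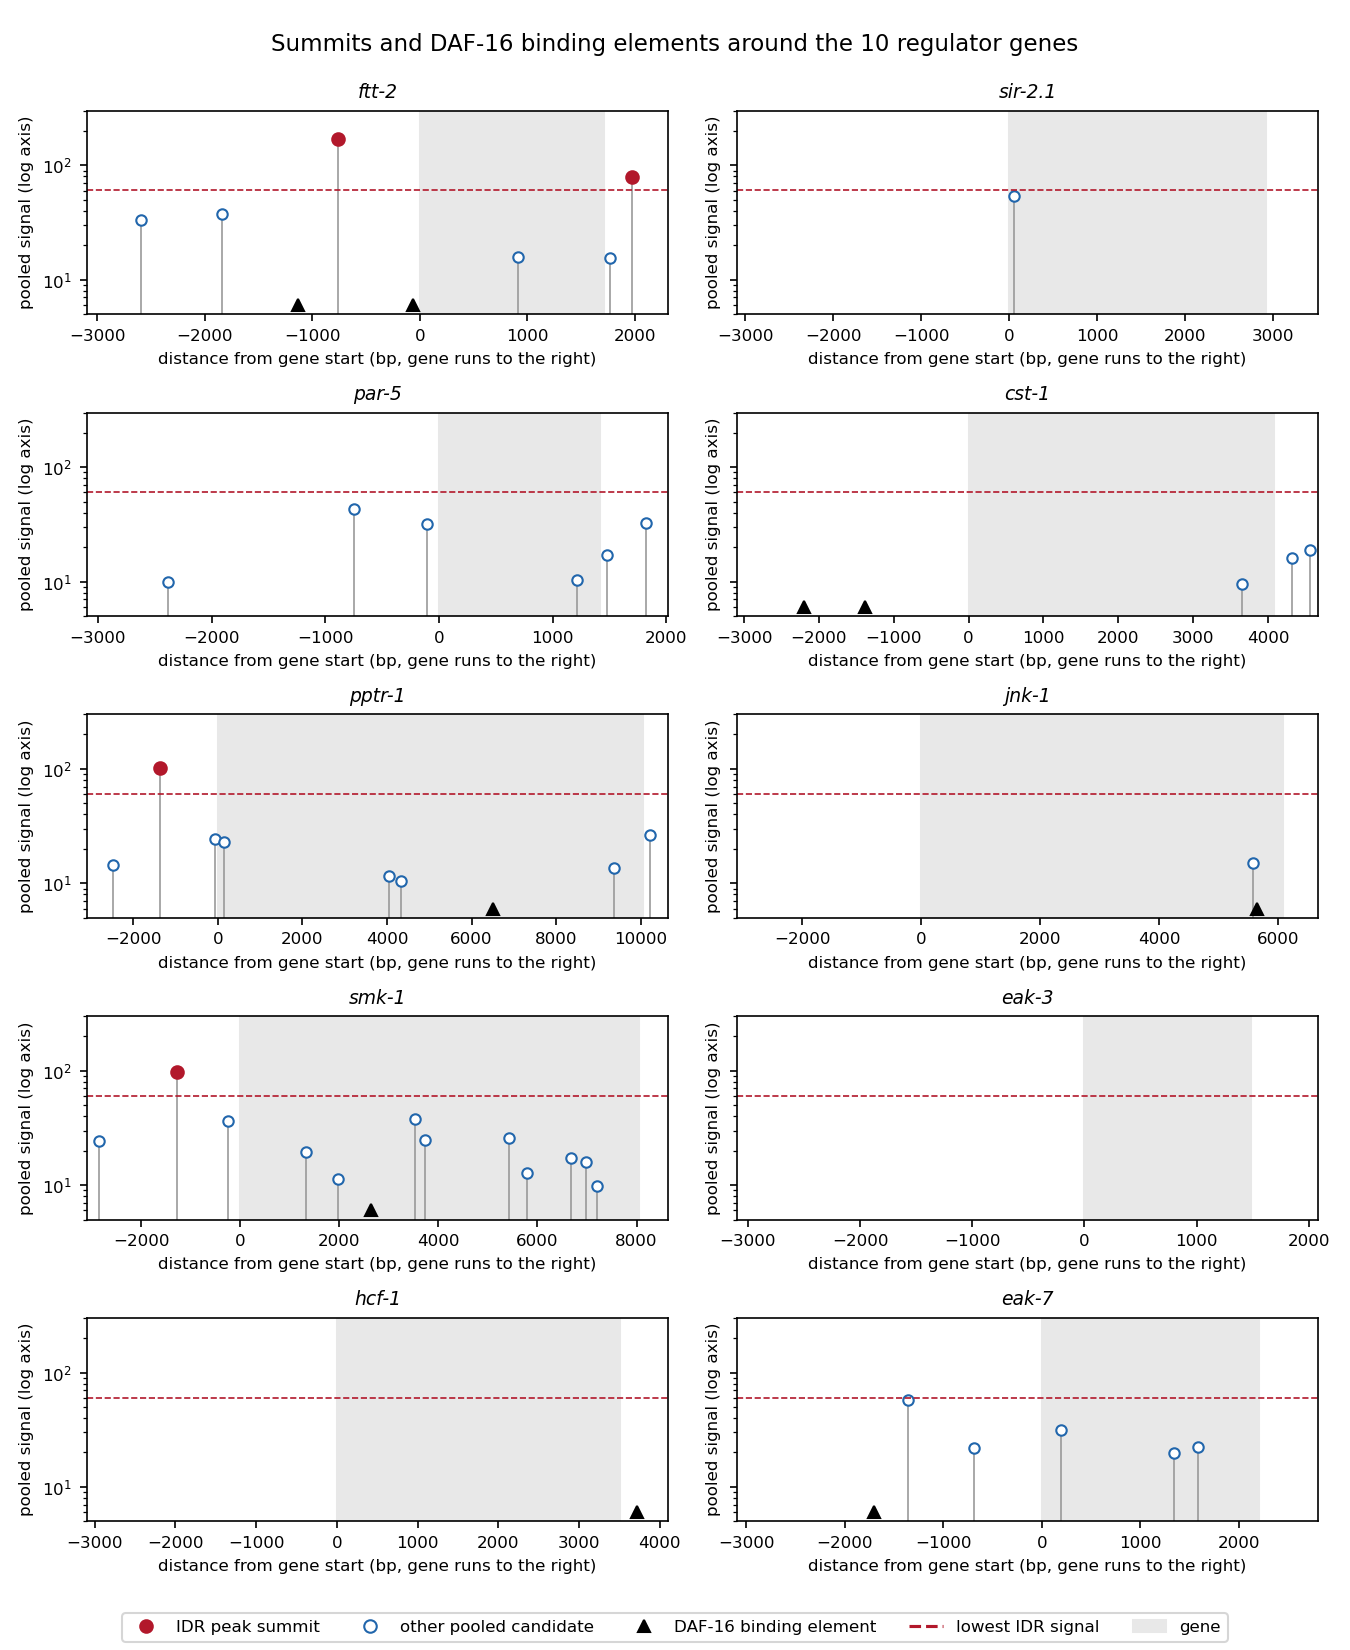
Each panel is 1 gene. The horizontal axis is the distance from the gene's start in bp, with the gene drawn left to right and shaded, and the vertical axis is the pooled signal on a log axis. Filled circles are IDR summits, open circles are other pooled candidates, triangles mark each DBE and the dashed line is the lowest IDR signal, 60.46. Filled circles are present at ftt-2, pptr-1 and smk-1, and the triangle that lies under a summit is the one at jnk-1.

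The sequences around the 4 IDR summits of the regulators, and around the strongest candidate of eak-7, are shown because none of them holds a DBE. Each is 121 bases of the ce11 plus strand, centred on the summit, and capitals mark GAGAGA or its reverse complement TCTCTC, a repeat common in these peaks.
ftt-2, upstream, chrX:11606121-11606241: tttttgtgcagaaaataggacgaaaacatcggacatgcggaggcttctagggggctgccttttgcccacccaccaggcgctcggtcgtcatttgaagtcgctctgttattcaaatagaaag
ftt-2, past the end, chrX:11603384-11603504: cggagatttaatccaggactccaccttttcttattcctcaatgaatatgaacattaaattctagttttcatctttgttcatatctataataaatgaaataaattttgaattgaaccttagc
pptr-1, upstream, chrV:16356092-16356212: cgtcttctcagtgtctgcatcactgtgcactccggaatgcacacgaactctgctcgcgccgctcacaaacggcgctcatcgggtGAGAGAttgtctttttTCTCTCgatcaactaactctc
smk-1, upstream, chrV:8606470-8606590: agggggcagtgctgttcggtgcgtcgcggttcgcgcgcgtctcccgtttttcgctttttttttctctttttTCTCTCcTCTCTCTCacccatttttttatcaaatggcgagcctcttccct
eak-7, upstream, chrIV:12567279-12567399: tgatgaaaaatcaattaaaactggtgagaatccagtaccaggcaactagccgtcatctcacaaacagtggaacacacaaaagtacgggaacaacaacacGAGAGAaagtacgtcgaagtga
The pptr-1, smk-1 and eak-7 sequences hold a GA repeat, and neither ftt-2 sequence does.

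The 14-3-3 proteins of the worm are FTT-2 and PAR-5, which bind phosphorylated DAF-16 and keep it in the cytoplasm. ftt-2 (WBGene00001502, ce11 chrX:11603708-11605419, minus strand) had the strongest peak of the 10 regulators. Its IDR peak (chrX:11606066-11606338) had its summit at position 11606181, 762 bp upstream of the gene, with a pooled signal of 170.5 and rank 361. Replicate 1 had a candidate 19 bp away at 73.8 (rank 491), and replicate 2 had one at the same base at 97.7 (rank 300). Both replicates thus had a strong candidate at this site. Of all protein-coding genes, 2.21% (441) had a stronger candidate in their window. The summit lies inside F52D10.9, an annotated noncoding RNA gene on the same strand, and the nearest protein-coding start is that of ftt-2.

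The strongest replicate 1 candidate at ftt-2 was a separate one, 576 bp upstream, with a signal of 82.9 (rank 365). A weaker IDR peak of ftt-2 (chrX:11603402-11603514) had its summit past the end of the gene, at position 11603444 and 1975 bp from its start, with a pooled signal of 78.6 (rank 1740). Its replicate signals were 40.3 in replicate 1 (rank 1685) and 48.6 in replicate 2 (rank 1371). In all, 601 protein-coding genes, ftt-2 among them, had 2 or more IDR summits. The other 4 candidates of ftt-2 had signals of 15.4 to 37.3, all under the IDR limit.

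ftt-2 also had a pair of DBEs in its upstream region, and neither lay at a summit. They are printed here because they are the DBEs closest to an IDR summit of any regulator, with the DBE in capitals, on the plus strand.
ftt-2, 63 bp upstream, chrX:11605468-11605497: gaaagagggcgGTAAACAaatgaagattgt
ftt-2, 1136 bp upstream, chrX:11606541-11606570: atgcagggcgcGTAAACAtgcaggcaaaac
The element 63 bp upstream was 699 bp from the upstream IDR summit, and the element 1136 bp upstream was 374 bp from it. Over all nuclear IDR peaks the nearest DBE was a median of 2251 bp from the summit, with quartiles of 676 and 5344 bp. The 374 bp of the upstream ftt-2 summit is below the lower quartile, and the 2038 bp of the summit past the end is close to the median.

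par-5 (WBGene00003920, chrIV:11820506-11821924, minus strand), the other 14-3-3 gene, had 6 pooled candidates and no IDR peak. The strongest was 749 bp upstream of par-5 with a pooled signal of 42.7 (rank 4077), and it was found in replicate 1 at 19.3 and in replicate 2 at 23.7. It lies in an intron of M117.3, whose start is nearer to it, at 467 bp. Closer to par-5, a candidate 105 bp upstream had a pooled signal of 32.0, with 29.98 in replicate 1 and no match within 100 bp in replicate 2. A candidate past the end of par-5 had a signal of 32.7, matched in replicate 2 alone (27.1). The par-5 window held no DBE. Of all genes, 20.3% had a stronger candidate than par-5, against the 2.21% above for ftt-2, so ftt-2 stood well above par-5 in the order of genes.

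PPTR-1 is a B56 regulatory subunit of protein phosphatase 2A that directs dephosphorylation of AKT-1. pptr-1 (WBGene00012348, chrV:16357521-16367574, plus strand) had 8 candidates and 1 IDR peak (chrV:16355934-16356369). Its summit lay at position 16356152, 1369 bp upstream in sequence with no annotated gene, and had a pooled signal of 102.4 and rank 1110. The signal was 59.1 in replicate 1 at the same base (rank 829) and 45.0 in replicate 2, 28 bp away (rank 1564). The signal is close to the median of the strongest IDR signal over the 2831 genes that had one, 100.5. None of the other 7 candidates of pptr-1 exceeded 26.2, including 24.4 at 74 bp upstream and 23.2 at 146 bp inside the gene. The candidate of 26.2 lay past the end of pptr-1, in a coding exon of W08G11.3 and 70 bp from the start of W08G11.3. The single DBE of pptr-1 (chrV:16364035-16364041) lies in an intron, 6517 bp from the start, and its nearest candidate is 2196 bp away.

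SMK-1 is a regulatory subunit of protein phosphatase 4 and a nuclear cofactor that DAF-16 needs for its effect on lifespan. smk-1 (WBGene00018285, chrV:8607800-8615843, plus strand) had 12 candidates, the highest number of the 10 regulators. Its IDR peak (chrV:8606312-8606747) had its summit at position 8606530, 1270 bp upstream, with a pooled signal of 98.0 and rank 1193. In replicate 1 the matching candidate was 94 bp away with a signal of 40.0 (rank 1706), close to the 100 bp limit for a match, and in replicate 2 it was 10 bp away with 65.4 (rank 788). This summit is 402 bp from the start of vps-60, the nearest protein-coding start, so it can be counted for either gene. Nearer to smk-1 itself, a candidate 252 bp upstream had a pooled signal of 36.6, matched in replicate 2 (27.2) and not in replicate 1. A candidate in a smk-1 intron with a signal of 37.8 lay 62 bp from the start of fip-4. The DBE of smk-1 is intronic, 2649 bp from the start and 683 bp from the nearest candidate.

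HCF-1 is a nuclear protein that binds DAF-16 and limits its access to target promoters. hcf-1 (WBGene00001827, chrIV:7770770-7774275, minus strand) had no pooled candidate. Replicate 2 had 3 weak candidates in its window, none above a signal of 11.8, and replicate 1 had none. A DBE lay past the end of hcf-1 (chrIV:7770557-7770563), 11934 bp from the nearest pooled candidate.

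SIR-2.1 is a sirtuin deacetylase that associates with DAF-16 and 14-3-3 proteins. sir-2.1 (WBGene00004800, chrIV:10363318-10366229, minus strand) had 1 candidate, and it lay at the gene's start, 54 bp inside in a coding exon (summit 10366175). Its pooled signal was 53.9 (rank 2995), with 32.1 in replicate 1 (rank 2423) and 22.4 in replicate 2, 66 bp away (rank 4714). The sir-2.1 candidate fell short of the IDR limit of 60.46 on the pooled list. It would be among the strongest 2563 of replicate 1 and would not be in replicate 2. No DBE was present in the sir-2.1 window.

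CST-1 and JNK-1 are protein kinases that phosphorylate DAF-16 and promote its move to the nucleus under stress. cst-1 (WBGene00017472, chrX:4339632-4343706, plus strand) had 3 candidates with pooled signals of 9.53 to 18.7, 1 in an intron near its end and 2 past its end, all nearer to the start of F14H12.3 than to that of cst-1. None of the 3 had a match in replicate 2. jnk-1 (WBGene00002178, chrIV:6957641-6963719, plus strand) had 1 candidate, 5587 bp from its start in an exon, with a pooled signal of 15.1 (rank 17169). Replicate 2 had it at 10.8 and replicate 1 did not, and the strongest replicate 1 candidate of jnk-1, with a signal of 12.02, lay in an intron 595 bp from the start. The strongest candidates of both kinases were thus near the median signal of the pooled list, 16.7.

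The cst-1 window is largely duplicated. Of all 31-base words in its window, 73.1% occur elsewhere in the genome, with 91.0% in the upstream part, 68.9% in the gene and 0% past the end. Every repeated word of the gene, 2785 of 4045, also lies in the window of cst-2 (chrX:4333057-4336050, minus strand), an inverted neighbour that had no candidate. No word within 100 bp of the 3 cst-1 candidates was repeated. How the authors treated reads with more than 1 match is not given in the sources used here, and its part in the absence of upstream candidates was not tested. In the other 9 windows 0% to 7.04% of words were repeated, and no word within 100 bp of the 4 IDR summits was.

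Between cst-1 and cst-2 stood a pair of DBEs, 2202 and 1384 bp upstream of cst-1 and 1380 and 2198 bp upstream of cst-2. They are shown because the pair are inverted copies of each other, sharing a run of 29 bases when 1 of them is reverse complemented. Only the 30 bases printed for each were compared, and the run reaches the limits of that comparison. The 29 bases are therefore a lower limit, and how far the copy extends beyond them was not measured.
cst-1, 2202 bp upstream, chrX:4337416-4337445: tgattcacgtaTGTTTACtatctttacttg
cst-1, 1384 bp upstream, chrX:4338234-4338263: aagtaaagataGTAAACAtacgtgaatcag
The nearest pooled candidate was 5042 bp from the closer element and 5860 bp from the other, and both elements lie in the upstream part where 91.0% of words repeat.

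The candidate in jnk-1 was the 1 candidate of the 42 in all 10 windows with a DBE within 100 bp, beside 3% of all pooled candidates (900 of 30000). Its DBE was centred 57 bp from the summit and is printed for that reason. A DBE of eak-7, which stands 348 bp from that gene's strongest candidate, is given beside it.
jnk-1, chrIV:6963271-6963300: ttctttacaatTGTTTACccgacatctttt
eak-7, 1704 bp upstream, chrIV:12567673-12567702: gtgtttggtccGTAAACAaaacttcggcgc

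EAK-3 and EAK-7 act in parallel with AKT-1 to inhibit DAF-16, and eak genes were found as enhancers of an akt-1 mutation. eak-7 (WBGene00010671, chrIV:12563775-12565983, minus strand) had 5 candidates. The strongest, 1356 bp upstream at position 12567339, had a pooled signal of 57.5 (rank 2766), just under the weakest IDR peak. Its signal was 18.3 in replicate 1, 34 bp away (rank 5458), and 39.2 in replicate 2 at the same base (rank 1973). Its deposited q-value, 1.27e-04, was the top value of the list, which the IDR peaks share, as did the sir-2.1 candidate. The nearest start was that of hsb-1, 113 bp away, which encodes a protein that binds and inhibits the heat shock factor HSF-1. At 199 bp inside eak-7 a candidate of 31.5 was found in replicate 1 at 8.34 and in replicate 2 at 17.6. The strongest replicate 1 candidate of eak-7 was a separate one, in an intron 371 bp inside the gene, with a signal of 21.9 (rank 4213). eak-3 (WBGene00022356, chrIII:1175074-1176558, minus strand), which lies inside cdh-12, had no pooled candidate. Replicate 1 had 2 weak candidates there, 9.92 and 6.06, and replicate 2 had none. Studies of eak-3 place its expression in a pair of neuroendocrine cells, and the part of the transgene's muscle promoter in the missing peak was not tested.

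The replicates were then compared over all candidates. Of the 42 pooled candidates, 13 had a summit within 100 bp in both replicates, beside 28.6% of all pooled candidates (8571 of 30000). The 13 included all 4 IDR summits, beside 94.9% of all IDR peaks. Matches in both were also present at par-5, sir-2.1 and eak-7, and absent at cst-1, jnk-1, hcf-1 and eak-3. In each replicate's own list the strongest candidates of ftt-2, pptr-1 and smk-1 stayed within the strongest 2563. eak-7 was within them in replicate 2 alone, at rank 1973, and sir-2.1 in replicate 1 alone, at rank 2423. IDR peaks are selected for agreement between replicates, so the high ranks of ftt-2, pptr-1 and smk-1 in both follow largely from that selection. The share of all IDR peaks within the strongest 2563 of each replicate was not counted.

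**Figure D2:**
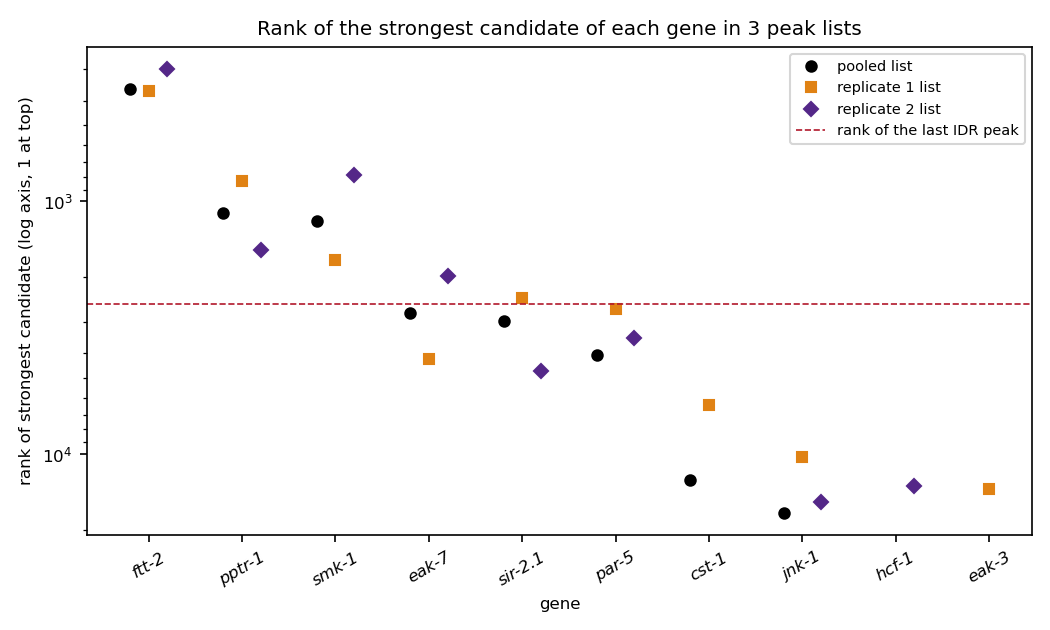
The horizontal axis lists the 10 genes in order of pooled rank, and the vertical axis is the rank of the strongest candidate in the gene window on a log axis with rank 1 at the top. Circles are the pooled list, squares replicate 1 and diamonds replicate 2, each ranked within its own list, and the dashed line is the rank of the last IDR peak, 2563. All symbols of ftt-2, pptr-1 and smk-1 lie above the line, eak-7 and sir-2.1 have 1 symbol above it, and a missing symbol means that the list had no candidate.

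Longer windows hold more peaks, so the counts were read against genes of like window length. The median window was 6709 bp over the 10 regulators and 5527 bp over all genes. All genes were divided by window length into 5 classes of equal size. An IDR summit was present in 22.3% of genes in the longest class, 7821 to 106256 bp (Wilson 95% interval 20.99 to 23.6), to which pptr-1, smk-1 and jnk-1 belong. It was present in 12.1% of the middle class, 5165 to 5990 bp (11.1 to 13.2), to which ftt-2 and eak-7 belong. The share was 15.7% at 5990 to 7821 bp, the class of hcf-1, sir-2.1 and cst-1. At 4556 to 5165 bp, the class of par-5 and eak-3, it was 9.99%. From the longest of these classes to the shortest, 78.7%, 64.6%, 52.5% and 47.8% of genes had a pooled candidate. No length-matched share was computed for the 10 regulators together. Within each gene's own class, 2.03% of genes had a stronger candidate than ftt-2, 10.9% than pptr-1 and 11.5% than smk-1. Over all genes these shares were 2.21% for ftt-2, 6.88% for pptr-1 and 7.31% for smk-1.

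**Figure D3:**
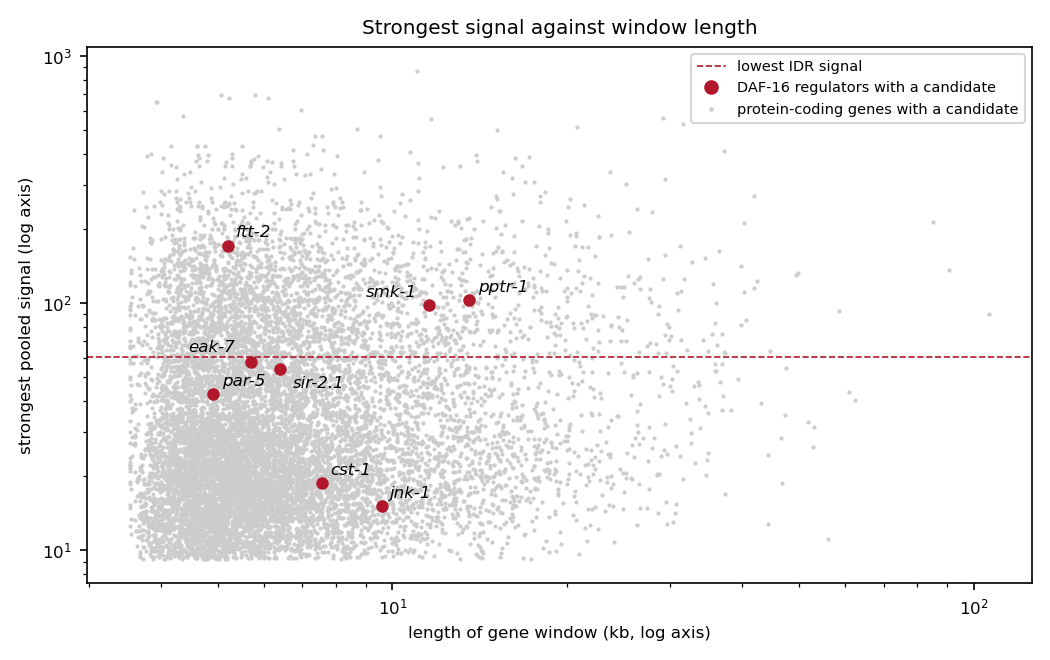
The horizontal axis is the length of each gene's window in kb and the vertical axis the strongest pooled signal in it, both on log axes. Grey dots are protein-coding genes with a candidate, red dots the 8 regulators with one, and the dashed line is the lowest IDR signal. ftt-2 stands highest of the 8 at 170.5 with a window of 5212 bp, while pptr-1 and smk-1 have windows of 13554 and 11544 bp.

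The strongest IDR summits of ftt-2, pptr-1 and smk-1 were upstream but mostly not at the start, and the weaker one of ftt-2 lay past its end. With a window of 1000 bp upstream to 200 bp downstream of the start, 1 of the 10 regulators kept an IDR summit, ftt-2, beside 6.25% of all genes. Over the 2831 genes with an IDR summit, the strongest one was upstream in 67.5%, at a median of 844 bp (quartiles 263 and 1819 bp). The distances of 762, 1369 and 1270 bp at ftt-2, pptr-1 and smk-1 lie between those quartiles. Another gene's start was nearer than the gene's own in 44.3% of these genes, and in 1 of the 3 regulators, smk-1.

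Base composition and motifs differed between the 4 IDR summits. Within 100 bp of the summit, GC content was 45.3% and 30.3% at the upstream and downstream ftt-2 summits, 54.7% at pptr-1 and 49.8% at smk-1, beside a median of 42.8% over all IDR peaks (quartiles 37.8% and 47.8%). GAGAGA, on either strand and counting overlapping copies, was present 5 times at pptr-1 and 3 times at smk-1, so in 2 of 4 summits, beside 40.9% of all IDR peaks. No regulator's IDR summit had CAGCTG, the E-box of the muscle factor HLH-1, beside 10.4% of IDR peaks. None had a looser forkhead core, which reads ATAAACA or ATAAATA, or either of these with G in place of the opening A, so that it takes in the DBE, beside 26.8%. None had CTTATCA, the DAF-16 associated element, beside 3.75%. All motifs were searched on both strands, and a missing match says only that these letters were not within 100 bp of the summit.

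DBEs were about as common in these windows as elsewhere. Over the 10 windows there were 9 DBEs, 0.118 per kb, beside 0.119 per kb of the nuclear genome. Of the 10 regulators 7 had at least 1, beside 49% of all genes, and par-5, sir-2.1 and eak-3 had none. The 8 DBEs other than that of jnk-1 lay 348 bp or more from the nearest pooled summit.

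The other genes of the pathway were counted the same way. Of 40 such genes, 17 (42.5%) had an IDR summit, beside the 14.2% of all genes. Their windows were longer, with a median of 8937 bp. That median falls in the longest class of window length, where 22.3% of genes had an IDR summit. The 40 windows ran over several classes, from 4629 bp at eak-4 to 49833 bp at daf-2. The 22.3% is therefore not a share for genes of like length. In the insulin pathway core 6 of 10 genes had one, with a median window of 10462 bp, also in the class with 22.3%. The windows of aap-1 (5841 bp) and akt-1 (7441 bp) were shorter than that class. akt-2 had the strongest signal, 174.7 (710 bp upstream), and daf-2, the insulin receptor gene, had 132.4 in an intron. akt-1, which like akt-2 encodes a kinase that phosphorylates DAF-16, had 128.9 in an intron, the strongest of its 4 IDR summits, and pdk-1, whose kinase activates AKT, had 117.1. ist-1, an insulin receptor substrate gene, had 86.0. daf-16 itself had 82.3 in an intron, and because the transgene carries daf-16a sequence, its part in that peak was not tested.

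Of 30 other regulators of DAF-16, 11 had an IDR summit, beside 14.2% of all genes. Their median window of 8529 bp is again in the longest class, where the share was 22.3%, though some of their windows fell in shorter classes. The strongest was at cbp-1, an acetyltransferase gene, with a signal of 220.8. aak-2, a catalytic subunit of AMP-activated kinase, had 153.4, the nuclear receptor gene daf-12 had 152.2, the RNA helicase gene hel-1 had 136.6 and the O-GlcNAc transferase gene ogt-1 had 135.6. tax-6, a calcineurin subunit gene, had 106.0, unc-43, the CaM kinase II gene, had 74.2, and math-33, a deubiquitylase gene, had 73.3 at a summit nearer to the start of erfa-3. Another B56 subunit gene, pptr-2, had 110.0. let-92, the catalytic subunit gene of protein phosphatase 2A, had 71.9, with 46.1 in replicate 1 and 9.13 in replicate 2. paa-1, the scaffold subunit gene of that phosphatase, had 71.3 at a summit nearer to the start of F48E8.8, with 38.1 in replicate 1 and 32.7 in replicate 2. Without replicate 1, neither let-92 nor paa-1 was counted.

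**Figure D4:**
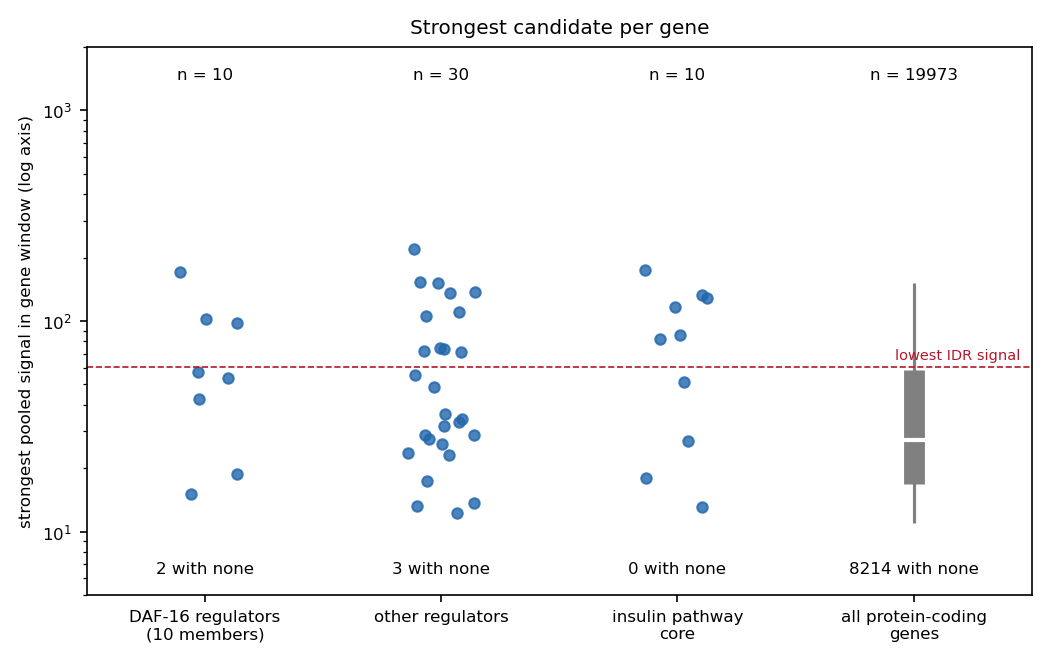
The vertical axis is the strongest pooled signal in a gene's window on a log axis, and the columns are the 10 regulators, 30 other regulators, the 10 genes of the insulin pathway core and all protein-coding genes. Each dot is 1 gene, the grey box spans the quartiles of all genes with a candidate with a white line at the median of 27.3, its thin line runs between percentiles 5 and 95, and genes with no candidate are counted beneath. Above the dashed line of the lowest IDR signal lie 3 of the 10 regulators, 11 of the 30 and 6 of the 10.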

How the data were processed

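Per the labels, DAF-16 ChIP-seq was made from 2 biological replicates of 1 group, with sonicated chromatin. The authors deposited, on the ce11 build, a peak list for each replicate, one for both replicates pooled and one thresholded on the irreproducible discovery rate (IDR). Each peak has a signal value given by the authors, whose scale is not given in the sources used here, and the deposited −log10 of a q-value. A control library that the deposited records name as a source of the peaks was not analysed here. Not given in the sources used here are the aligner, the caller, versions, the IDR threshold and the treatment of reads with several matches.

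Positions are 1-based summits on ce11, which is WBcel235. The reference sequence was the RefSeq assembly of that name, and genes came from Ensembl release 115. All peak ends lay within its chromosome lengths. Summits were matched between lists within 100 bp, and motifs were searched within 100 bp of a summit. Signal was compared only among peaks of the same list. Since there was 1 group, no test was made, and Wilson intervals cover counting error over genes only. Repeated sequence was measured as words of 31 bases found more than once in the genome. Scripts ran in Python 3.11.15 with pandas 2.3.3, numpy 2.4.6 and scipy 1.17.1, and window and motif counts were checked on simulated data. The ce10 lists were left out to keep 1 build.

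The members and the lists of other genes were chosen with earlier results of these data known. All 10 members are named. Of the other lists every gene with an IDR summit is named. Some, but not all, neighbouring genes whose start is nearer to a member's summit are named. The alternatives were other windows, a count by peak overlap or by nearest start, the stronger IDR peaks alone, other motif distances and a looser motif, a matching distance of 50 bp, and each replicate left out.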

Additional observations from a re-analysis of the deposited data

How the results depend on the processing

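The 3 regulators with an IDR summit (main share of all genes 14.2%) became 1, ftt-2, both with the promoter window and with 1000 bp upstream in place of 3000 bp. The share of all genes was then 6.25% and 10.4%. With each summit given to the nearest start alone, 2 remained, ftt-2 and pptr-1, and the share of all genes was 8.54%. Any overlap of the peak kept 3, with 14.7% of all genes, and the stronger IDR peaks, those at or above the median signal, kept 3, with 7.80%. Of the 40 other genes, 17 in the main count, 8 had an IDR summit in the promoter window and 11 with the stronger IDR peaks. When the 2563 strongest candidates of 1 replicate were used in place of IDR peaks, 4 regulators were counted either way, with eak-7 added without replicate 1 (14.16% of all genes) and sir-2.1 added without replicate 2 (13.999%). The other genes then numbered 16 without replicate 1 and 17 without replicate 2. Without replicate 1, let-92 and paa-1 were not counted and sir-2.2 was added. The count of regulators with a DBE near an IDR summit was 0 in every setting run, including 50 and 200 bp and the looser core. Settings with smaller windows, fewer IDR summits or 50 bp could only give 0 again, so they add nothing to the main count. With the looser core the share of all IDR peaks was 26.8%, and at 50 and 200 bp it was not counted. Regulators with a pooled candidate, 8 in the main count beside 58.9% of all genes, numbered 6 to 9 over its settings. The share of all genes was not counted in those other settings, so this range has no background beside it. Candidates matched in both replicates fell to 8 of 42 at 50 bp, against 13 at 100 bp. The share of all pooled candidates was 28.6% at 100 bp and was not counted at 50 bp. No paired analysis was possible because there is 1 group. Depth is unknown, so a missing peak is not shown to be missing binding.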

Other observations

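Of the 17 genes of the other lists with an IDR summit, the strongest summit had a DBE within 100 bp in 2, daf-12 and hel-1. This is near the 8.93% of all IDR peaks with a DBE (229 of 2563). At daf-12 the summit lay in an intron, 1356 bp from the start, with signals of 74.3 in replicate 1 and 77.4 in replicate 2. At hel-1 it lay 266 bp upstream, with signals of 52.3 in replicate 1 and 83.1 in replicate 2. The strongest summit was nearest to the gene's own start in 15 of the 17. Over the 2831 genes with an IDR summit, another gene's start was nearer in 44.3%. Together these 40 genes held 29 IDR summits, and akt-1 held 4 of them.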
